A study of Homo sapiens with 6 samples.

Results

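The 30 genes described here encode the enzymes and regulators of cholesterol and fatty acid synthesis. They were taken as a fixed list of symbols, mapped through the Ensembl identifiers of the deposited count table, and all 30 were found among its 58440 identifiers and passed the filter on low counts. By textbook role, 6 belong to the mevalonate arm, 11 to the sterol arm, 6 to the regulators and sterol transport, and 7 to the fatty acid arm. The series measured total RNA of K562, an established chronic myeloid leukaemia cell line with erythroid features, in 3 libraries of cells over-expressing the long noncoding RNA IRAIN (called IRAIN libraries) and in 3 control libraries. The labels call the controls wild type and the columns of the table call them vector, so they are named controls here, by their column number, and whether they carried an empty vector was not tested. The labels give neither the vector, nor whether the over-expressing cells were 1 clone or a pool, nor whether replicates were grown as separate cultures, and p-values therefore measure only the spread between these libraries, which may be technical.

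IRAIN had 97, 94 and 106 counts in the IRAIN libraries, against 0, 0 and 1 in the controls. The IRAIN libraries held 11558983 to 13303139 counts in genes, and the controls 11893872 to 12237415. Of the erythroid markers, GATA1 stood at 194 ± 8.38 CPM (counts per 1000000 of the scaled library) in the IRAIN libraries and 204 ± 3.61 CPM in the controls (SD, n = 3 each), and all 6 markers of the line were detected in every library. The 7 markers of other cell types summed to 83.9 to 95.02 CPM in the IRAIN libraries and 99.4 to 107 CPM in the controls, mostly EPCAM, COL1A2 and PECAM1, with MS4A1 at 0 in every library and CD3E under 1 CPM. Of these 7, PECAM1 fell, to 10.3 ± 0.944 CPM in the IRAIN libraries, against 19.98 ± 2.57 CPM in the controls (SD, n = 3 each; edgeR adjusted p = 9.82e-12). ALB fell too, with 1 count in each IRAIN library, against 10, 13 and 22 counts in the controls (edgeR adjusted p = 4.91e-07), as did COL1A2, at a log2 fold change of -0.22 (edgeR adjusted p = 0.00493). EPCAM did not pass the test, and the part of these markers in the results was not tested. Mitochondrial genes took 2.95 to 3.33% of the counts in the IRAIN libraries and 2.46 to 2.78% in the controls, and their part in the results was not tested.

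Cells build cholesterol from acetyl-CoA through mevalonate and squalene, and build fatty acids from the same acetyl-CoA through malonyl-CoA. Both routes are driven by the sterol regulatory element binding proteins (SREBPs): SREBP-2, encoded by SREBF2, mainly drives the sterol genes, and SREBP-1, encoded by SREBF1, mainly the fatty acid genes. The precursors are held in the endoplasmic reticulum by SCAP and the INSIG proteins while sterols are plentiful, and are cut and released to the nucleus when sterols run low. Dividing cells use the products of both routes for new membranes.

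In the fatty acid arm, FASN, which makes palmitate, fell by 30.2%, and FADS1 and ACACA fell too, while ELOVL6 rose. ACLY, at a log2 fold change of -0.07, and SCD, at 0.07, passed the test as well, but each lost its call in 7 of 11 alternatives. The mevalonate and sterol enzymes did not move as a block: 3 of 17 rose, 3 fell and 11 did not pass the test. SREBF2 rose by 1.37-fold and SREBF1 fell slightly. In RNA of whole cultures, fewer cells that express a gene and less RNA per cell cannot be told apart. In all, 7 of the 30 genes were higher and 8 lower by edgeR's quasi-likelihood test, with Benjamini-Hochberg adjusted p under 0.05, which is 50% together. Of all 18380 genes tested, 20.3% were higher and 18.9% lower, 39.3% together, so the share of called members is not far from that of all genes. Calls were more frequent at higher levels: 72.9% of genes at 200 CPM or more were called, against 6 of 7 members at that level, 59.4% of genes at 50 to 200 CPM, against 6 of 10 members, and 44.3% of genes at 10 to 50 CPM, against 3 of 11 members. The median log2 fold change of the 30 genes was 0.02, beside -0.001 over all tested genes, and the median size without its sign was 0.15, beside 0.20. That size depends on level. Over all genes it was 0.42 under 1 CPM and 0.30 at 1 to 10 CPM. At 10 to 50, 50 to 200 and 200 CPM or more, where most members lie, it was 0.17, 0.14 and 0.14. The changes were modest: edgeR's test against a 1.5-fold change called 0 of the 30, beside 3.75% of all genes, and its test against a 1.2-fold change called 5, beside 12.7% of all genes. The 5 were FASN, FADS1, SREBF2, HMGCS1 and LSS. With GC and length offsets FASN stood at -0.61 on the log2 scale.

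**Figure D1:**
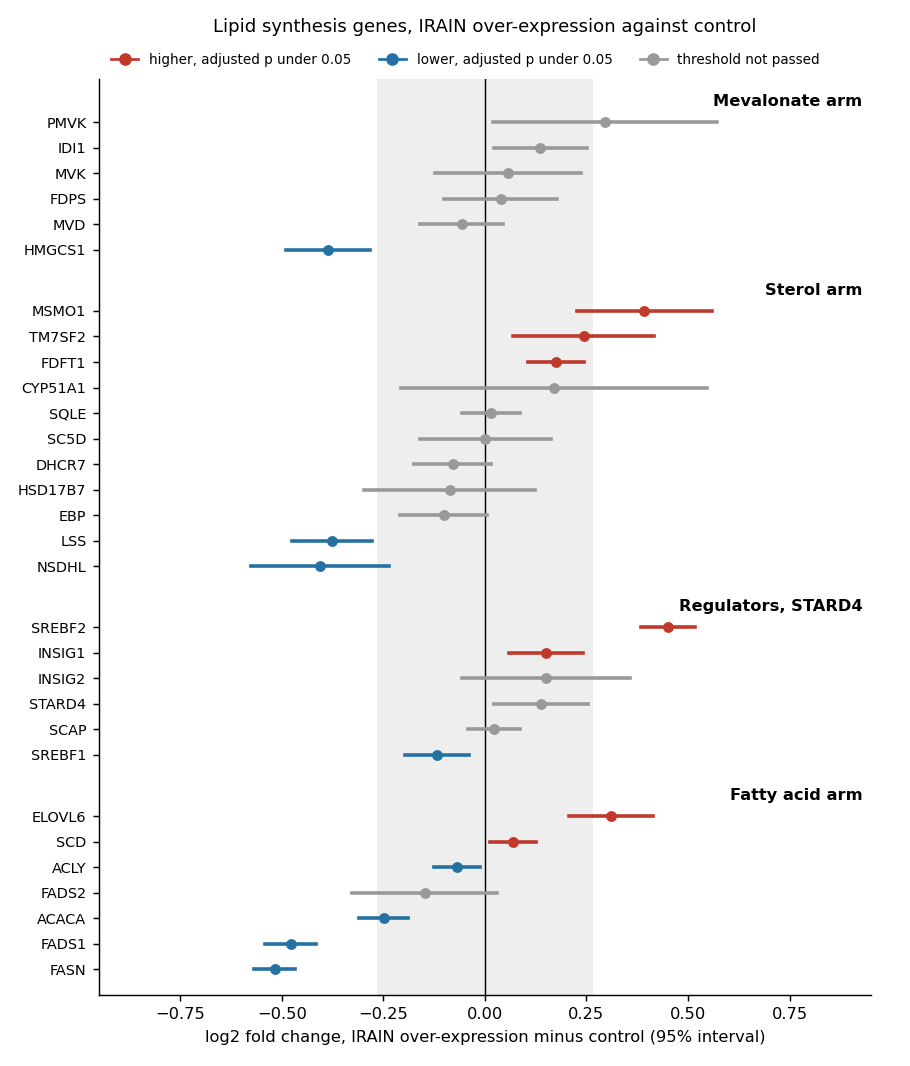
Log2 fold change of each of the 30 genes, IRAIN over-expression minus control, on the horizontal axis, with genes grouped by arm and ordered by value; bars are 95% intervals from edgeR and the grey band spans a 1.2-fold change either way. FASN (-0.52) and FADS1 (-0.48) lie farthest left and SREBF2 (0.45) farthest right, and the sterol arm is spread over both sides of 0.

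Sequences upstream of the transcription start are shown for 6 genes that differed in direction, because SREBPs are known to bind sterol regulatory elements together with the factor NF-Y, which binds CCAAT boxes. Each is the 250 bases before the start listed first for the gene in RefSeq on GRCh38.p14, 5′ to 3′ on the strand of the gene. Capitals mark matches on either strand to TCACNCCA, a shortened sterol regulatory element, to TCACGTGA, a palindromic box that SREBPs also bind, and to CCAAT, which reads ATTGG on the other strand. SREBF2, INSIG1 and MSMO1 rose, and HMGCS1, NSDHL and FADS1 fell. The risen genes shown are those with TCACNCCA or TCACGTGA in their window. TM7SF2, SCD and ELOVL6 rose too and had a window, but held neither motif and are not shown. No fallen gene with a window held either, and MVK, which did not pass the test, held TCACNCCA. The panel is thus not a neutral sample, and whether motif and direction go together was not tested.
SREBF2, chr22:41832855-41833104, plus strand: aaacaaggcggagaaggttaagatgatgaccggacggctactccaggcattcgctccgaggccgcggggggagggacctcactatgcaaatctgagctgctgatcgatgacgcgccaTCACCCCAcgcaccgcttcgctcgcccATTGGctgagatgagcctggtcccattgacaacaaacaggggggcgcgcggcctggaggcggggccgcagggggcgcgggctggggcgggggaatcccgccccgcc
INSIG1, chr7:155297628-155297877, plus strand: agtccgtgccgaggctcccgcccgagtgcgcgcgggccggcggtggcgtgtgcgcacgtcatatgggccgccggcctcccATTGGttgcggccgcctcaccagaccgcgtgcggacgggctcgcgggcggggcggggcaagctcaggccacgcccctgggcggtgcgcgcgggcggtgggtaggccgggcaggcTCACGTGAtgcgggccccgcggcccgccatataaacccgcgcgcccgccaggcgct
MSMO1, chr4:165327419-165327668, plus strand: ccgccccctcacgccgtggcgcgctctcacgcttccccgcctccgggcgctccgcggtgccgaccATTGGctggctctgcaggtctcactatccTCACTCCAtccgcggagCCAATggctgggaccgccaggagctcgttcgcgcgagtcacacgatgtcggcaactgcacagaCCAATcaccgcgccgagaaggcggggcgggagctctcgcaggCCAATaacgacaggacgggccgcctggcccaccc
HMGCS1, chr5:43313413-43313662, minus strand: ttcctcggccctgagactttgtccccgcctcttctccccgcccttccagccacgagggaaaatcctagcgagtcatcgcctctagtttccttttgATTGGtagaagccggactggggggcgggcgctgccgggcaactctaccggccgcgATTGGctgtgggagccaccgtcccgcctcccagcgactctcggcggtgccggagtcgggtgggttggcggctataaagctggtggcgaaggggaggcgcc
NSDHL, chrX:152830813-152831062, plus strand: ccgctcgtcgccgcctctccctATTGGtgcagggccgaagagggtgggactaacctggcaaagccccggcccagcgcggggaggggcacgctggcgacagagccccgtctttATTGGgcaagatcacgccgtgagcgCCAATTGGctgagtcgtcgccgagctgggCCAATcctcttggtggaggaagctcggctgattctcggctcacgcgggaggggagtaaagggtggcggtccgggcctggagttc
FADS1, chr11:61817004-61817253, minus strand: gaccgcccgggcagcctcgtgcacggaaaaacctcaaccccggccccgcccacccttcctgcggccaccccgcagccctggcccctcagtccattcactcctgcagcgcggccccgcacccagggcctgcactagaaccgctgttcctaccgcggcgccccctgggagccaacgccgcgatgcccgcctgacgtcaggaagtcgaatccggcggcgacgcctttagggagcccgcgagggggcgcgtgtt

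Of the 30 genes, 27 had such a window. FASN, FDFT1 and SQLE had none in the table used, so the motif counts leave out FASN, the gene with the largest log2 fold change in size of the 30. The full element TCACNCCAC was found in 1 of the 27, SREBF2, at bases -133 to -125 from the start, and in 0.875% of the 27305 windows of all genes. The shorter TCACNCCA, which every full element contains, was found in 3, SREBF2, MSMO1 and MVK, and in 3.18% of all windows. TCACGTGA was found in INSIG1 alone of the 27, at -56 to -49, and in 0.89% of all windows. A CCAAT box on either strand stood in 17 of the 27, beside 33% of all windows: in 12 of 15 mevalonate and sterol enzymes, in 3 of 6 regulators and in 2 of 6 fatty acid enzymes. It was present in 5 of the 6 risen genes with a window and in 4 of the 7 fallen ones. NSDHL, which fell, held 5, of which 2 overlap by 2 bases, and MSMO1, which rose, held 4. A GC box, GGGCGG on either strand, stood in 25 of the 27 and in 42.3% of all windows. The 27305 windows were not limited to expressed or protein-coding genes, as all members are. The shares thus compare unlike sets, and whether they differ from other expressed genes was not tested. FADS1 held no CCAAT box and none of the SREBP motifs in its window. These are matches of letters in a short window, and no factor's binding was measured.

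SREBF2 (ENSG00000198911.11, GRCh38 chromosome 22, 41833079 to 41907308, plus strand) had 254, 262 and 243 CPM in the IRAIN libraries, against 186, 189 and 180 CPM in the controls. All 3 IRAIN libraries lay above all 3 controls. The log2 fold change was 0.45 ± 0.0333 (standard error; edgeR adjusted p = 5.14e-18). The 64 tested genes within 2 Mb on either side had a median log2 fold change of -0.01. SREBF1, its paralogue, had 144, 135 and 128 CPM in the IRAIN libraries, against 143, 155 and 142 CPM in the controls. The ranges overlapped, and the log2 fold change of -0.12 ± 0.0392 (standard error; edgeR adjusted p = 0.0128) lost its call in 4 of 11 alternatives: DESeq2 (adjusted p = 0.0903), and edgeR without over-expression replicate 2 (0.052), replicate 3 (0.139) or control column 2 (0.172). Scaled by exon length, SREBF2 was 1.99 ± 0.0926 times as abundant as SREBF1 in the IRAIN libraries and 1.34 ± 0.0385 times in the controls (SD, n = 3 each), a ratio within each library that does not depend on library scaling.

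SCAP, the escort that carries SREBPs out of the endoplasmic reticulum, averaged 253 ± 7.39 CPM in the IRAIN libraries and 249 ± 6.73 CPM in the controls (SD, n = 3 each). Its 95% interval for the log2 fold change was -0.04 to 0.09, so a change of 1.2-fold lies outside it. INSIG1, the retention factor that is itself induced by SREBPs, had 83.2, 88.9 and 88.8 CPM in the IRAIN libraries, against 74.2, 80.2 and 81.0 CPM in the controls. The groups did not overlap, but the gap was narrow. INSIG1 rose by 0.15 ± 0.0456 (SE of the log2 fold change; edgeR adjusted p = 0.00606), a call that DESeq2 did not make (adjusted p = 0.0798) and that was lost without control column 1 (0.0848). INSIG2, the less sterol-dependent retention factor, had 17.4, 16.98 and 12.8 CPM in the IRAIN libraries, against 14.7, 14.7 and 13.0 CPM in the controls. Over-expression replicate 3 was the lowest of the 6, and the test was not passed (adjusted p = 0.263). Without that replicate the log2 fold change was 0.29 and passed (edgeR adjusted p = 0.0288). STARD4, which carries cholesterol between membranes, had 45.9, 47.7 and 47.0 CPM in the IRAIN libraries, against 44.5, 41.6 and 41.7 CPM in the controls, at 0.14 ± 0.0583 (standard error; edgeR adjusted p = 0.0525), just short of the threshold. It passed without control column 1 (adjusted p = 0.0376) and with offsets for GC content and length (0.0218).

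Of the mevalonate arm, which turns acetyl-CoA into isoprenoid units, 1 of 6 genes fell and none rose. The share called was 16.7%, beside 39.3% of all tested genes. HMGCS1 (ENSG00000112972.14, chromosome 5, 43289395 to 43313512, minus strand), the synthase that makes HMG-CoA, had 48.9, 53.1 and 52.9 CPM in the IRAIN libraries, against 68.1, 65.7 and 69.1 CPM in the controls. Every IRAIN library was below every control. The log2 fold change was -0.39 ± 0.0516 (standard error; edgeR adjusted p = 5.47e-09), and its 23 tested neighbours within 2 Mb had a median of 0.09. The kinase gene MVK averaged 18.7 ± 1.43 CPM in the IRAIN libraries and 18.0 ± 1.28 CPM in the controls. PMVK, the next kinase, had 9.31, 8.10 and 7.602 CPM in the IRAIN libraries, against 7.34, 7.13 and 5.80 CPM in the controls. These ranges did not overlap, yet with so few counts the 95% interval of the log2 fold change ran from 0.02 to 0.57 and the test was not passed (adjusted p = 0.0819). MVD, the decarboxylase, averaged 60.1 ± 2.15 CPM in the IRAIN libraries and 62.5 ± 2.37 CPM in the controls. IDI1, the isomerase of the isoprenoid units, averaged 51.1 ± 1.09 CPM in the IRAIN libraries and 46.5 ± 3.35 CPM in the controls, at 0.14 ± 0.0575 (standard error; edgeR adjusted p = 0.0521). It passed without control column 1 (adjusted p = 0.0164) and with GC and length offsets (0.0166).

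FDPS, which makes farnesyl diphosphate, averaged 31.7 ± 1.65 CPM in the IRAIN libraries and 30.9 ± 1.40 CPM in the controls (SD, n = 3 each). These values rest on a part of its reads. A second deposited table holds counts by strand for 1 library, and with strand ignored it is identical to over-expression replicate 2 for each of the 58440 identifiers. There FDPS had 391 counts with strand ignored, but 1063 on its own strand and 144 on the opposite one. Its exons share 693 bases with RUSC1-AS1 on the opposite strand. HMGCS1 gained less, with 676 counts with strand ignored and 873 on its own strand, and shares 703 bases with an antisense gene. Their fold changes therefore describe the reads outside the overlaps.

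In the sterol arm, which closes squalene into rings and trims them to cholesterol, 3 of 11 genes rose, 2 fell and 6 did not pass the test. The share called was 45.5%, near the 39.3% of all tested genes. FDFT1, squalene synthase, had 181, 186 and 184 CPM in the IRAIN libraries, against 165, 157 and 166 CPM in the controls, without overlap. It rose by 0.17 ± 0.0344 (SE of the log2 fold change; edgeR adjusted p = 2.9e-05). SQLE, the epoxidase often taken as rate-limiting in this arm, had 152, 151 and 157 CPM in the IRAIN libraries, against 154, 152 and 150 CPM in the controls. The groups were interleaved, and the 95% interval of the log2 fold change was -0.06 to 0.09.

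LSS (ENSG00000160285.14, chromosome 21, 46188141 to 46228824, minus strand), which closes the ring to lanosterol, had 70.8, 64.6 and 61.0 CPM in the IRAIN libraries, against 81.7, 86.7 and 85.9 CPM in the controls. All IRAIN libraries were lower, with over-expression replicate 1 nearest to the controls. LSS fell by 0.38 ± 0.0488 on the log2 scale (standard error; edgeR adjusted p = 2.34e-09), and its 41 tested neighbours had a median log2 fold change of -0.12. MSMO1, which removes the methyl groups at carbon C-4, had 24.3, 25.1 and 22.2 CPM in the IRAIN libraries, against 17.9, 18.2 and 18.3 CPM in the controls, and rose by 0.39 ± 0.0832 (SE of the log2 fold change; edgeR adjusted p = 8.79e-05). NSDHL, the dehydrogenase that acts in the same demethylation, went the other way, with 19.7, 17.4 and 16.6 CPM in the IRAIN libraries, against 24.9, 22.6 and 23.6 CPM in the controls. It fell by 0.41 ± 0.0849 on the log2 scale (standard error; edgeR adjusted p = 6.89e-05), while its 61 neighbours had a median log2 fold change of -0.17. Thus MSMO1 and NSDHL, which act in the same demethylation, stood on opposite sides of 0, each without overlap between the groups.

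TM7SF2, a sterol reductase, averaged 20.7 ± 1.06 CPM in the IRAIN libraries and 17.5 ± 0.825 CPM in the controls, and rose by 0.24 ± 0.0868 (SE of the log2 fold change; edgeR adjusted p = 0.0206), a call lost by DESeq2 (adjusted p = 0.165), with GC and length offsets (0.0809), and without over-expression replicate 1 (0.0878) or control column 2 (0.0984). EBP, the sterol isomerase, averaged 51.2 ± 1.94 CPM in the IRAIN libraries and 54.9 ± 0.279 CPM in the controls. DHCR7, which makes the last reduction, averaged 67.1 ± 2.02 CPM in the IRAIN libraries and 70.9 ± 1.38 CPM in the controls. For both, the IRAIN libraries lay below the controls, and neither passed (edgeR adjusted p = 0.132 for EBP and 0.193 for DHCR7). With GC and length offsets both passed, at -0.13 (edgeR adjusted p = 0.0403) for EBP and -0.12 (0.0301) for DHCR7. SC5D, a desaturase of the ring, averaged 24.3 ± 1.25 CPM in the IRAIN libraries and 24.4 ± 2.72 CPM in the controls. HSD17B7, the ketoreductase of the demethylation step, averaged 13.0 ± 0.545 CPM in the IRAIN libraries and 13.8 ± 1.88 CPM in the controls, and has pseudogene copies that can take or block its reads. CYP51A1, which removes the methyl group at C-14, was listed at only 4.13 ± 0.478 CPM in the IRAIN libraries and 3.65 ± 0.205 CPM in the controls. In GENCODE 29, 79.4% of its exon bases are shared with another gene on the same strand, for which no counts were available. The part of that overlap in the CYP51A1 level was not tested. Only 70.4% of its few stranded reads lay on its own strand, so its level is uncertain.

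Of the fatty acid arm, 2 of 7 genes rose, 4 fell and 1 did not pass. The share called was 85.7%, beside 39.3% of all tested genes and 72.9% of those at 200 CPM or more. ACLY, which makes cytosolic acetyl-CoA from citrate, had 372, 372 and 376 CPM in the IRAIN libraries, against 389, 386 and 399 CPM in the controls. The groups were apart but close, and the log2 fold change of -0.07 ± 0.0281 (standard error; edgeR adjusted p = 0.045) lost its call in 7 of 11 alternatives, at most without control column 3 (-0.06, edgeR adjusted p = 0.201). The call held without over-expression replicate 3 and was lost without each other library. ACACA, acetyl-CoA carboxylase, the committing step, had 282, 274 and 291 CPM in the IRAIN libraries, against 341, 326 and 340 CPM in the controls. It fell by 0.25 ± 0.0303 on the log2 scale (standard error; edgeR adjusted p = 3.36e-10), without overlap.

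FASN (ENSG00000169710.8, chromosome 17, 82078333 to 82098332, minus strand) had 896, 871 and 883 CPM in the IRAIN libraries, against 1256, 1279 and 1259 CPM in the controls. The 2 groups were each within a few percent and far apart. FASN fell by 0.52 ± 0.0255 on the log2 scale (standard error; edgeR adjusted p = 5.42e-26), with 97 neighbours at a median log2 fold change of -0.04. SCD, the desaturase that makes oleate, had 429, 413 and 420 CPM in the IRAIN libraries, against 400, 408 and 395 CPM in the controls. Its rise of 0.07 ± 0.028 (SE of the log2 fold change; edgeR adjusted p = 0.0432) lost its call in 7 of 11 alternatives, at most without control column 3 (0.06, edgeR adjusted p = 0.181). It was also lost without over-expression replicate 1, control column 1 or control column 2. Scaled by exon length, FASN was 1.203 ± 0.00465 times as abundant as SCD in the IRAIN libraries and 1.81 ± 0.0158 times in the controls (SD, n = 3 each). ELOVL6, which lengthens palmitate to stearate, rose by 0.31 ± 0.0518 (SE of the log2 fold change; edgeR adjusted p = 1.17e-06), with 62.9, 61.5 and 62.9 CPM in the IRAIN libraries, against 49.8, 50.6 and 50.6 CPM in the controls. FASN and ELOVL6 thus moved in opposite directions.

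FADS1 (ENSG00000149485.18, chromosome 11, 61799625 to 61829318, minus strand), the delta-5 desaturase of long polyunsaturated fatty acids, had 217, 209 and 213 CPM in the IRAIN libraries, against 292, 293 and 303 CPM in the controls. It fell by 0.48 ± 0.031 on the log2 scale (standard error; edgeR adjusted p = 1.92e-20). Tested genes of chromosome 11 had a median log2 fold change of -0.13, and the 76 neighbours of FADS1 within 2 Mb had -0.05. FADS2, the delta-6 desaturase transcribed divergently from the same locus, had 16.5, 21.4 and 20.1 CPM in the IRAIN libraries, against 21.4, 23.3 and 19.8 CPM in the controls. The groups overlapped and the test was not passed (adjusted p = 0.19), with a 95% interval of the log2 fold change from -0.33 to 0.03. In the library with strand counts, 57.7% of the FADS2 reads lay on its own strand, the lowest share of the 30 genes, and the exons of the pair share 490 bases. There FADS2 had 272 counts with strand ignored, but 321 on its own strand and 235 on the opposite one. The gain on its own strand was far smaller than for FDPS, and how many FADS2 reads the overlap removed was not tested. FADS1 lies on that opposite strand, and its part in the stranded FADS2 counts was not tested. With GC and length offsets FADS2 passed at -0.24 (edgeR adjusted p = 0.0288).

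**Figure D2:**
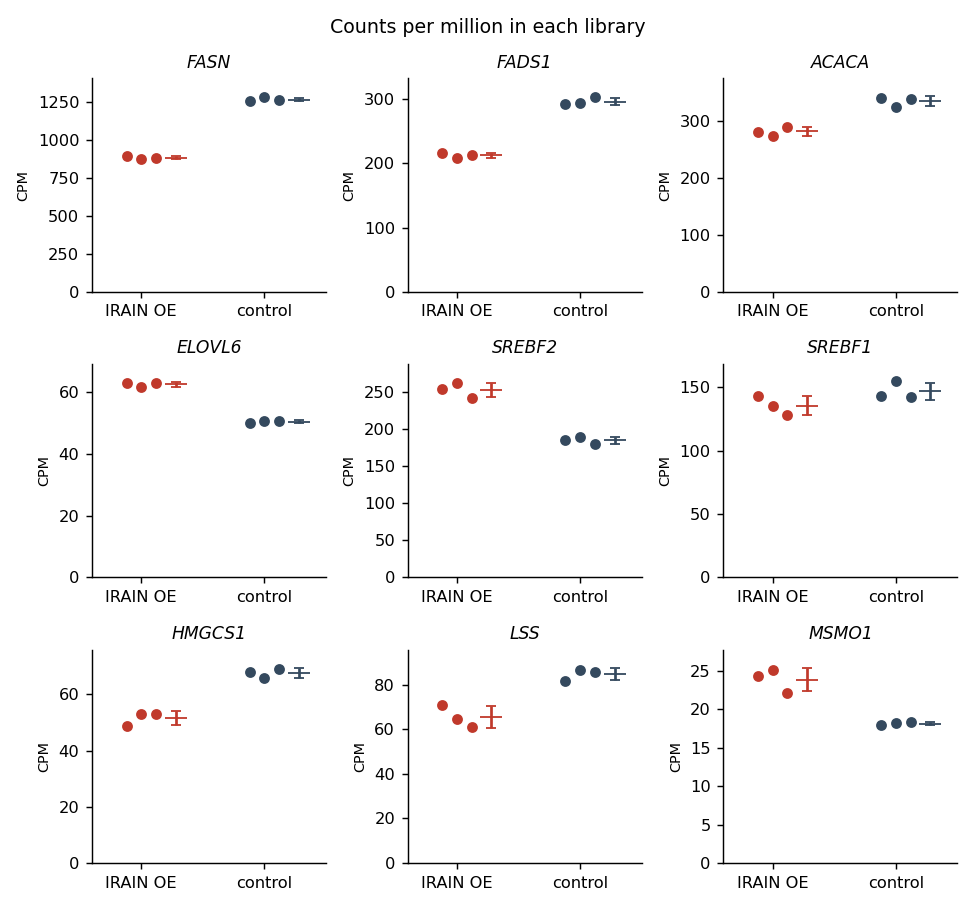
CPM in each library for 9 of the genes, with the IRAIN IRAIN libraries left of the controls; points are libraries, and the bar beside them is the mean with its SD (n = 3), on axes that start at 0. SREBF1 is the 1 gene of the 9 whose groups overlap, and FASN, FADS1, ACACA, HMGCS1 and LSS are lower and ELOVL6, SREBF2 and MSMO1 higher in every IRAIN library.

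Compared as arms, the 17 mevalonate and sterol enzymes summed to 845 to 848 CPM in the IRAIN libraries and 848 to 864 CPM in the controls, a change of the mean by -1.45%. The 7 fatty acid enzymes summed to 2222 to 2275 CPM in the IRAIN libraries and 2750 to 2767 CPM in the controls, a change by -18.4%. Without FASN, which held 39.2% of that sum in the IRAIN libraries and 45.8% in the controls, the change was -8.39%, smaller in size than that of the regulators without SCAP, 15.2%. Without FDFT1, its most abundant gene, the mevalonate and sterol sum changed by -4.78%. The 6 regulators with STARD4 summed to 777 to 801 CPM in the IRAIN libraries and 709 to 722 CPM in the controls, a change by 10.46%. The fatty acid sum was 2.66 ± 0.0373 times the mevalonate and sterol sum in the IRAIN libraries and 3.22 ± 0.0421 times in the controls (SD, n = 3 each). The mevalonate and sterol sum holds only a part of the reads of FDPS and HMGCS1, and the CYP51A1 level is uncertain. How far this raises the ratio was not tested. By genes, the median log2 fold change was 0.01 for the mevalonate and sterol enzymes, -0.15 for the fatty acid enzymes and 0.14 for the regulators. The test was passed by 35.3% of the mevalonate and sterol enzymes and 85.7% of the fatty acid enzymes, beside 39.3% of all tested genes. The fatty acid enzymes are also the more abundant. FASN, SCD, ACACA, ACLY and FADS1 stood above 200 CPM, and of all tested genes at 200 CPM or more 72.9% were called. The difference between the arms was not tested, since a sum over chosen genes carries no p here. Of the 17 mevalonate and sterol enzymes, 9 had a 95% interval within a 1.2-fold change either way, and of the 7 fatty acid enzymes 2 did.

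**Figure D3:**
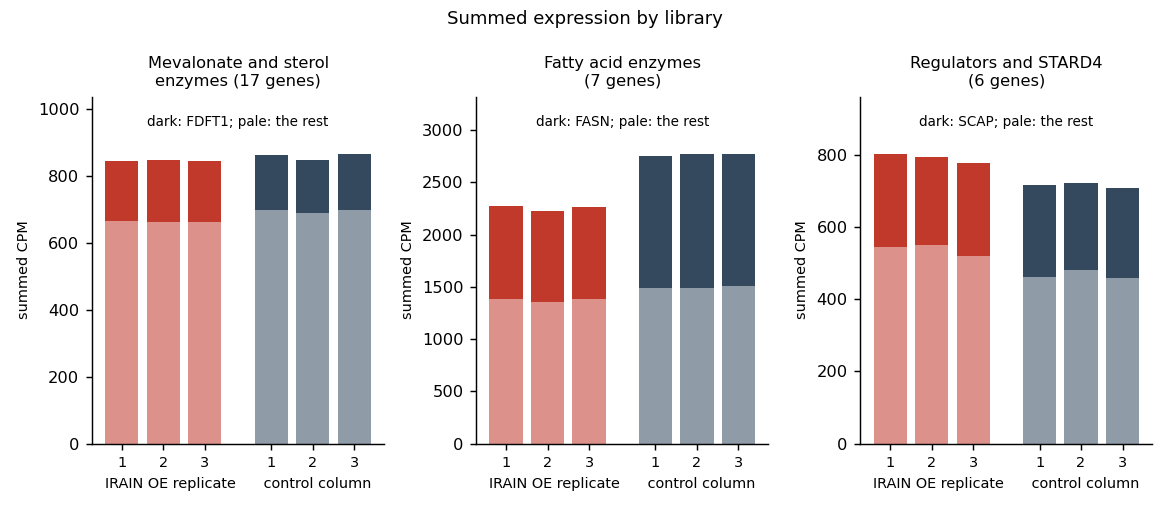
Summed CPM of 3 groups of genes in each library, IRAIN over-expression left of control, with the most abundant gene of each group in dark and the rest in pale. The fatty acid sum is lower in all 3 IRAIN libraries (2222 to 2275 against 2750 to 2767 CPM), and the mevalonate and sterol sum lies at 845 to 848 CPM in the IRAIN libraries and 848 to 864 CPM in the controls. The latter sum holds only a part of the reads of FDPS and HMGCS1.

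Per kilobase of exon, taken as the union of all annotated exons and thus an underestimate for genes with long rare isoforms, the highest level was that of FASN, at 94.4 CPM per kb in the IRAIN libraries and 135 in the controls. SCD stood at 78.5 and ACLY at 71.5 CPM per kb in the IRAIN libraries, against 74.8 and 75.05 in the controls, where these neighbours in the order did not differ beyond their SD. SCAP (39.3 CPM per kb in the IRAIN libraries and 38.7 in the controls), SQLE (35.6 and 35.3) and FDFT1 (35.3 and 31.3) followed. SREBF2 passed FADS1 and ACACA in the order, at 33.5 CPM per kb in the IRAIN libraries against 24.5 in the controls, where FADS1 had 28.9 and ACACA 25.8. At the low end, MVK, HSD17B7, FADS2 and CYP51A1 stayed under 3 CPM per kb in both groups. The CYP51A1 level is uncertain, since 79.4% of its exon bases are shared with another gene on the same strand. The mevalonate genes ranged from 2.89 to 12.7 CPM per kb in the IRAIN libraries and from 2.78 to 14.4 in the controls, below SQLE and FDFT1. These ranges hold only for counts with strand ignored. In over-expression replicate 2, FDPS had 391 such counts but 1063 on its own strand, so its level rests on a part of its reads.

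**Figure D4:**
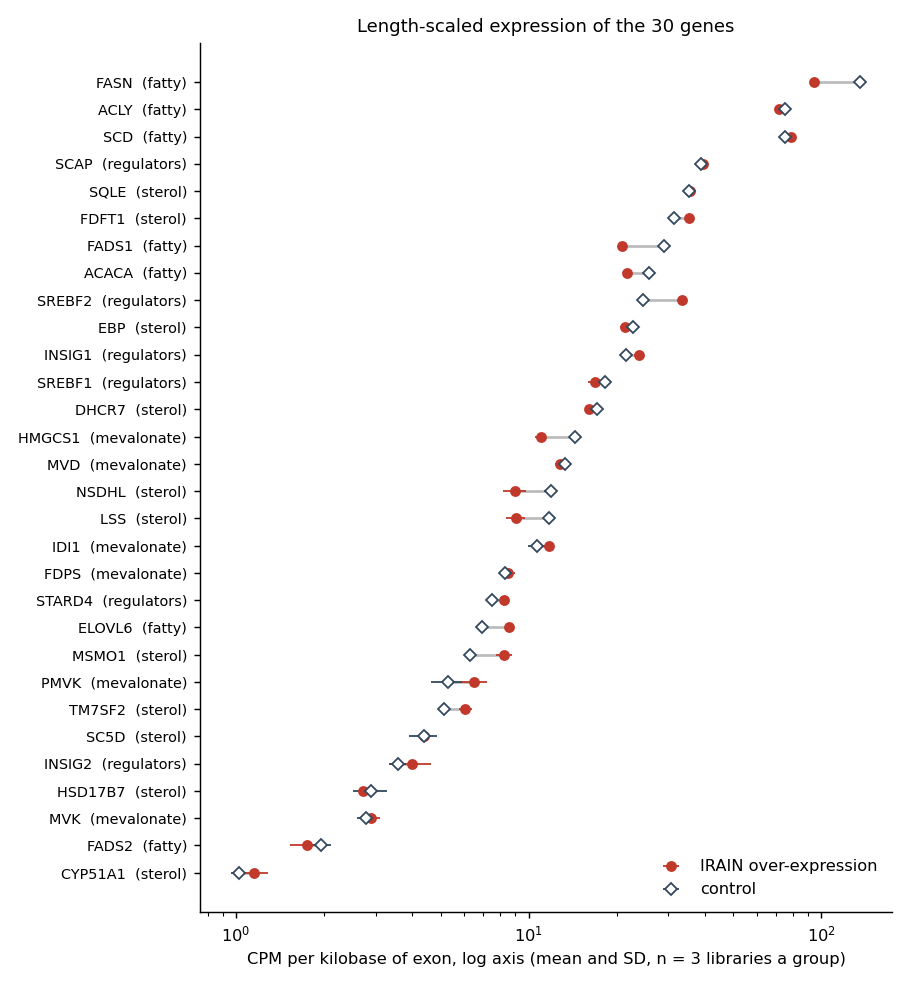
Level of each of the 30 genes in CPM per kilobase of exon on a log axis, with IRAIN over-expression as filled circles and controls as open diamonds (mean and SD, n = 3 libraries a group), ordered by the control level. The levels span from about 1 (CYP51A1) to 135 CPM per kb (FASN in the controls), and the gaps between the groups are small beside that span. The CYP51A1 level is uncertain, and that of FDPS rests on a part of its reads.

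Genes around the pathway were counted from 6 further lists. Of 15 genes of SREBP processing and sterol sensing, 4 rose, 6 fell and 5 did not pass, so that 66.7% were called, beside 39.3% of all tested genes. DESeq2 called 2 higher and 2 lower. MBTPS2, the site-2 protease that releases SREBPs, rose by 0.25 ± 0.0598 (SE of the log2 fold change; edgeR adjusted p = 0.000576). NPC1, which exports cholesterol from lysosomes, had 118, 112 and 119 CPM in the IRAIN libraries, against 138, 142 and 143 CPM in the controls, and changed by -0.27 ± 0.038 (edgeR adjusted p = 1.51e-08). PGRMC1, a partner of sterol-metabolising cytochromes, changed by -0.25 ± 0.0481 (edgeR adjusted p = 1.28e-05).

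Of the 7 genes of sterol efflux and of the liver X receptors, which sense oxidised sterols, 6 were tested, 2 rose and none fell, so that 33.3% were called, beside 39.3% of all tested genes. MYLIP, the ligase that marks lipoprotein receptors for degradation, had 129, 132 and 128 CPM in the IRAIN libraries, against 82.8, 86.4 and 88.5 CPM in the controls, a rise of 0.59 ± 0.0405 (SE of the log2 fold change; edgeR adjusted p = 1.74e-19). ABCA1, the cholesterol efflux pump, was low, with 4.31, 2.59 and 4.03 CPM in the IRAIN libraries, against 1.92, 0.972 and 2.32 CPM in the controls, and rose by 1.06 ± 0.253 (edgeR adjusted p = 0.000445). The receptors themselves, named after their values were seen, did not pass, with log2 fold changes of 0.04 for NR1H2 and 0.07 for NR1H3. ABCG1 had 1 count in all IRAIN libraries together and none in the controls.

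Of 11 genes of the isoprenoid branches, which use mevalonate products for prenyl anchors and ubiquinone, 1 rose and 2 fell. These are 27.3% of the list, under the 39.3% of all tested genes. RABGGTB, a subunit of the transferase that prenylates RAB proteins, had 129, 136 and 129 CPM in the IRAIN libraries, against 198, 198 and 198 CPM in the controls, and changed by -0.59 ± 0.0351 (SE of the log2 fold change; edgeR adjusted p = 3.6e-22). Its partner RABGGTA rose by 0.31 ± 0.0862 (edgeR adjusted p = 0.00276). PDSS1, which makes the ubiquinone tail, changed by -0.32 ± 0.0772 (edgeR adjusted p = 0.000628).

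Of 11 genes of acetyl-CoA and fatty acid supply, 5 rose and 3 fell, 72.7% of the list, beside 39.3% of all tested genes. The acyl-CoA synthetases went both ways: ACSL1 rose by 0.39 ± 0.0533 (SE of the log2 fold change; edgeR adjusted p = 8.58e-09), and ACSL4, which prefers polyunsaturated fatty acids, changed by -0.50 ± 0.0492 (edgeR adjusted p = 4.84e-13). IDH1, a source of NADPH, rose by 0.29 ± 0.0325 (edgeR adjusted p = 2.06e-11), ACSS2, the cytosolic acetyl-CoA synthetase, rose by 0.24 ± 0.0477 (edgeR adjusted p = 2.44e-05), and SLC25A1, the mitochondrial citrate carrier, changed by -0.19 ± 0.0293 (edgeR adjusted p = 3.55e-07). FABP5, a fatty acid carrier, changed by -0.49 ± 0.177 (edgeR adjusted p = 0.0236), a call that DESeq2 did not make (adjusted p = 0.172). Its level was low, at 3.78 ± 0.343 CPM in the IRAIN libraries and 5.30 ± 0.759 CPM in the controls (SD, n = 3 each).

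Of 13 further genes of elongation and desaturation, 11 were tested, 1 rose and 6 fell, 63.6% of those tested, beside 39.3% of all tested genes. ELOVL7, an elongase, had 8.61, 7.23 and 8.89 CPM in the IRAIN libraries, against 14.3, 14.2 and 15.8 CPM in the controls, and changed by -0.84 ± 0.113 (SE of the log2 fold change; edgeR adjusted p = 6.27e-09). The dehydratases of the elongation cycle were lower, with HACD3 at -0.28 ± 0.0376 (edgeR adjusted p = 6.14e-09) and HACD1 at -0.52 ± 0.0848 (edgeR adjusted p = 5.88e-07), though 42.4% of the HACD1 reads with strand counts lay on its own strand. The risen gene was the elongase ELOVL5, at 0.12 ± 0.032 (edgeR adjusted p = 0.0024). The median of the list was -0.17, close to the -0.15 of the fatty acid arm. ELOVL4 had 0 counts in every library, and SCD5 had 2 counts in all.

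Of 15 genes of mitochondrial fatty acid oxidation, the opposite route, 14 were tested, 4 rose and 2 fell, with a median log2 fold change of 0.05. The 42.9% called are near the 39.3% of all tested genes. ETFDH, which passes electrons from fatty acid oxidation to ubiquinone, had 32.5, 35.8 and 34.9 CPM in the IRAIN libraries, against 21.5, 21.2 and 23.7 CPM in the controls, a rise of 0.64 ± 0.0738 (SE of the log2 fold change; edgeR adjusted p = 8.67e-11). HADHA, a subunit of the trifunctional protein, rose by 0.14 ± 0.0289 (edgeR adjusted p = 6.25e-05), while HADHB, the other subunit, changed by -0.16 ± 0.036 (edgeR adjusted p = 0.000206). HADH rose by 0.22 ± 0.0504 (edgeR adjusted p = 0.00036), and ECHS1, the hydratase, changed by -0.50 ± 0.052 (edgeR adjusted p = 2.61e-12). CPT1A, which admits fatty acids to mitochondria and was named after its values were seen, did not pass, at -0.07 ± 0.0353.

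**Figure D5:**
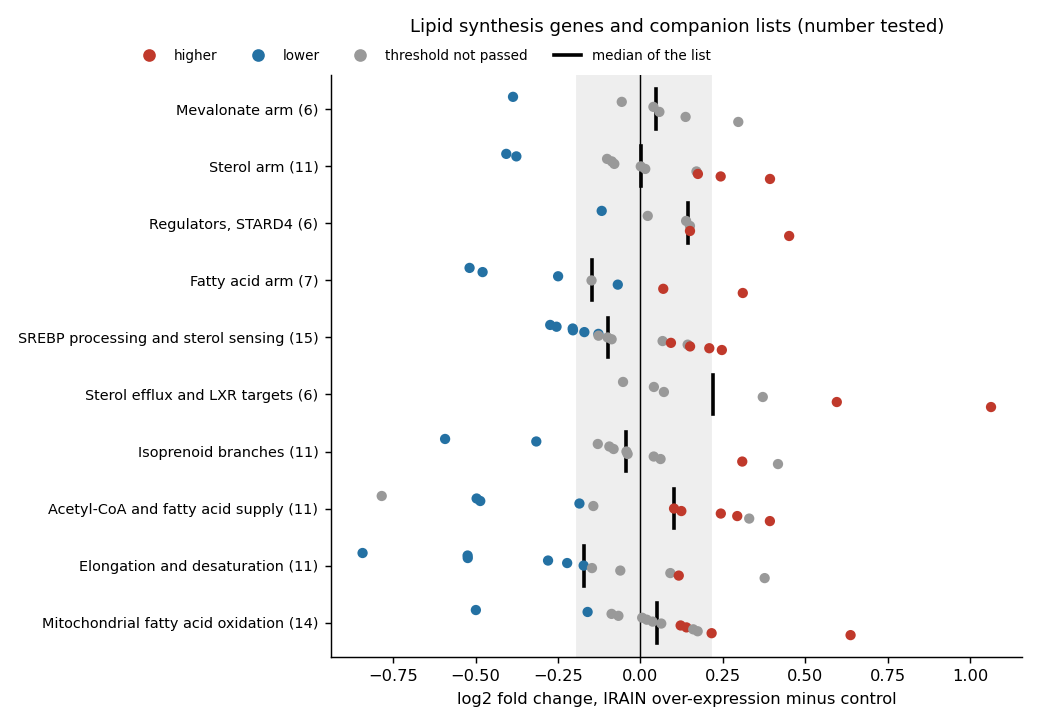
Log2 fold change of each tested gene, IRAIN over-expression minus control, for the 4 groups of lipid synthesis genes and the 6 further lists, with the list's median as a black bar; the grey band is the middle part of all tested genes, from the lower quartile (-0.19) to the upper quartile (0.21). The fatty acid arm and the list of elongation and desaturation have the lowest medians, -0.15 and -0.17, and the list of sterol efflux the highest, 0.22.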

How the data were processed

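Total RNA of K562 cells was sequenced in 3 libraries per group, made with a TruSeq RNA kit per the labels' protocols. The submitters' processing notes name STAR and the hg38 (GRCh38) build. Its version, the annotation and the counting step: not given in the sources used here. What the authors deposited are raw, whole-number counts per gene with strand ignored, without normalization, and such counts by strand for 1 library, in which 15.1% of stranded counts lay on the minor strand. Over-expression columns match the labels by number. Control columns are named vector, so they stand for the control group with no number tied to a sample. No column belongs to another series.

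Identifiers were matched without version to GENCODE 29 (58320 of 58440) and to a table of names (57799). Each gene was tested by the quasi-likelihood F-test of edgeR 4.0.16 (R 4.3.3), which has no direction, with TMM factors, the default filterByExpr filter and Benjamini-Hochberg adjustment at 0.05 over all 18380 genes tested. CPM are counts over TMM-scaled library sizes, the SE is the size of the log2 fold change over the square root of F, and 95% intervals use the t distribution of the fit. Pairs of libraries differed by a chi-square per degree of freedom of 1.36 to 2.31 within groups and 12.9 to 14.5 across. The common biological coefficient of variation was 2.58%. The tests took the 3 libraries of a group as independent. Whether they came from separate cultures was not tested, since a larger distance across groups has no bearing on it. Alternatives were RLE factors, no filter, DESeq2 1.42.0, limma-voom (limma 3.58.1), edgeR tests against 1.2- and 1.5-fold changes, offsets smooth in GC content and exon length, leaving out each library, and, added after seeing the data, a block on the column number. The edgeR step was tested on simulated data. All members are named. Of each further list at most 3 risen and 3 fallen genes of smallest p could be named, except 1 that is not reported here, and genes in a remark on levels were chosen after their values were seen. The members and lists were chosen with earlier results of these data known.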

Additional observations from a re-analysis of the deposited data

How the results depend on the processing

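Of the 15 called genes, 10 passed in the same direction under all 11 alternatives that keep the test against no change: FASN, FADS1, ACACA, HMGCS1, LSS, NSDHL, SREBF2, ELOVL6, MSMO1 and FDFT1. Over these, the log2 fold change ran from -0.61 to -0.51 for FASN, from -0.53 to -0.46 for FADS1, and from 0.40 to 0.48 for SREBF2. SREBF1, TM7SF2, INSIG1, SCD and ACLY lost their call in at least 2. Of 390 single-gene values over all 13 settings, 321 kept direction and side, 49 lost the threshold, 8 gained it and 12 changed sign, and the cause was not tested. Sign changes were small: SC5D stood at -0.0015 with RLE factors, -0.0018 without the filter and -0.0037 by DESeq2, and SCAP at -0.028 with GC and length offsets. Leaving out each library, the log2 fold change ran from -0.071 to 0.088 for SC5D (below 0 without over-expression replicate 3, control column 2 or control column 3), from -0.00025 to 0.047 for SCAP (control column 2), from -0.0070 to 0.11 for MVK (over-expression replicate 2), from -0.0041 to 0.076 for FDPS and from -0.0025 to 0.028 for SQLE (over-expression replicate 3 in both), and from -0.15 to 0.030 for HSD17B7 (above 0 without control column 3).

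DESeq2 called 2463 genes higher and 2342 lower in all, among 36000 with at least 1 count. It called 4 members higher and 6 lower, 1 regulator higher and 0 lower, and 1 fatty acid enzyme higher. In SREBP processing it called 2 higher and 2 lower, in the isoprenoid branches 0 higher, and in acetyl-CoA supply 3 higher and 2 lower. RLE factors called 3686 genes higher and 3520 lower in all, and no filter 3671 and 3439. Each called 1 fatty acid enzyme higher. GC and length offsets called 3554 genes higher and 3842 lower in all, of 18380 tested, and 8 members higher and 11 lower. These include 5 mevalonate and sterol enzymes lower, 4 of them in the sterol arm, and 1 mevalonate gene higher. The test against a 1.2-fold change called 1404 genes higher and 924 lower in all, 1 member higher and 4 lower, of which 1 sterol gene and 2 fatty acid genes lower and 1 regulator higher. Other arm counts, and both counts of SREBP processing, were 0 there, besides 1 lower in the mevalonate arm. It called 3 lower in elongation, 1 lower in the isoprenoid branches, and 1 higher and 1 lower in acetyl-CoA supply and in oxidation. The test against 1.5-fold called 447 higher and 242 lower in all and 0 in every arm and list, where construction raises the bar. Leaving out each library gave 3291 to 3550 genes higher and 3043 to 3210 lower in all, of 18936 to 19093 tested. Among the members, 5 to 8 were higher and 6 to 7 lower. By arm, 0 to 1 mevalonate genes were higher, 0 to 1 regulators lower and 1 to 2 fatty acid enzymes higher. In the isoprenoid branches and in elongation 1 to 2 genes were higher, and in acetyl-CoA supply 3 to 4. Without the most abundant gene, the log2 ratio of summed CPM was -0.07 for the mevalonate and sterol enzymes, -0.13 for the fatty acid enzymes and 0.20 for the regulators. A replicate block on the number in the column names, added after seeing the data, called 3661 genes higher and 3416 lower in all, 6 members higher and 7 lower, and 1 fatty acid enzyme higher, since SCD (adjusted p = 0.0653) and ACLY (0.069) lost their call. It changed no other call among the 30 genes. Same-numbered libraries did not deviate together (correlations of -0.0423, -0.00568 and -0.0134 over 18380 genes), and no label ties the numbers to a shared source, so they share only a number. Genes under about 10 CPM, such as PMVK and CYP51A1, have wide intervals at this depth.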
